A study of Mus musculus with 101 samples.

Results

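Brca1, Brca2 and Trp53, the genes that the tumour models of this study were built on, were followed by name through the copy-number tables of mouse mammary tumours. They are 3 of the 43513 gene symbols in those tables, and all 3 were measured in every sample. Low-coverage sequencing of genomic DNA was available for 98 mammary tumours and 3 spleens. The deposited tables give for each gene a log2 ratio, the same ratio after segmentation (the segment value), and a whole-number copy score in which 2 is neutral. The study set tumours with the Brca1 missense variant L1363P, of several histology classes, against other breast cancer mouse models.

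The group named KP held 18 tumours, from mice in which Trp53 alone of the 3 genes is conditionally deleted in the usual naming of these models. KB1P held 31 tumours of the model in which Brca1 and Trp53 are both deleted. Of these, 10 carry KB1PM in place of KB1P in their titles, and the labels do not say what that name means. KB2P held 25 tumours of the model that deletes Brca2 and Trp53. KB1(L1363P)P held 24 tumours that carry the Brca1 variant, and the labels do not give the second Brca1 allele of these mice. All 4 models share the Trp53 deletion. In this family of models the Cre recombinase is usually driven by a keratin promoter that is active in epithelial cells, and the labels give neither the promoter nor the deleted exons. Ages are not given, and the labels name no mouse, so a p-value here reflects only how these samples vary. Among KB1(L1363P)P, 3 pairs of tumours share a title number up to the digit after its point and may come from 1 mouse each. In KB1P the title numbers 1, 5 and 12 each occur in library series 5289 and again in series D. Number 11.1 of series 5289 likewise stands beside 11 of series D. The labels do not say whether these come from the same mice. All were counted as separate tumours, and fits with 1 tumour per title number reduced only the KB1(L1363P)P pairs. Histology followed genotype. All 25 KB2P tumours and 29 of the KB1P tumours were adenocarcinomas, with 1 carcinosarcoma and 1 sarcomatoid tumour in KB1P. KP held 10 sarcomatoid tumours, 6 adenocarcinomas and 2 carcinosarcomas. KB1(L1363P)P held 12 sarcomatoid tumours, 9 carcinosarcomas and 3 adenocarcinomas. The 3 spleens carried the genotypes KB1(L1363P)P, KB1P and KP, 1 each.

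Brca1 is an E3 ubiquitin ligase subunit that acts early in homologous recombination and binds Palb2 through its coiled coil. Brca2 acts later in the same repair of DNA breaks, and Trp53 encodes p53, the transcription factor that halts or kills cells with damaged DNA. In conditional models of mammary cancer, loxP sites flank a run of inner Brca1 exons, the large central exon of Brca2 or nearly all coding exons of Trp53, so that recombination removes part of the gene and leaves its neighbours in place. A deletion of this kind lowers the read depth of the bins inside the gene against the bins around it, whatever the copy number of the chromosome. Tumour samples hold normal cells too, and fewer deleted cells cannot be told apart from fewer deleted alleles per cell in such bulk DNA.

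The measure used here was the local deviation, a log2 ratio minus the median log2 ratio of the surroundings. For a gene, the surroundings were genes within 1 Mb on either side that lay at least 40 kb away. A deviation of 0 is the level of the surroundings. The gene values behaved as means of 50 kb bins: genes lying within 1 bin had the same value as another gene of that bin in 96.3% of 11838 cases (tolerance 1e-06). Genes over several known bins equalled the mean of those bins in 90.7% of 1941 cases. The bins were therefore recovered and used beside the genes. For a bin, the surroundings were the recovered bins within 1 Mb on either side, without the bins next to it. The spread of bin deviations within a sample, which bounds the precision of any 1 bin, was 0.0959 to 0.236 in tumours with a median of 0.124. It was 0.0471 to 0.0524 in spleens. In 96.7% of 21442 genes within 1 bin, the middle of the 3 spleens sat at a constant of its own, so the ratios are relative to the middle spleen and the spleens are not an independent background. The library series, of which only 5289 and 5490 appear in the titles, differed between groups. KB2P came from series 3196 and 3499, which held no other group, so its genotype and its library series cannot be told apart. KB2P replicates 10 and 12 had log2 ratios that correlated at 0.93 over genes, against a median of 0.21 for KB2P pairs and a next highest value of 0.48. Their log2 ratios minus segment values correlated at 0.40, against a median of 0.37 for KB2P pairs. Replicates 10 and 12 may come from 1 mouse or 1 tumour, and were counted as separate tumours except where 1 was left out.

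Positions are those of RefSeq on GRCm38.p6. Brca1 spans chr11:101488761-101551955 on the minus strand and lies over 3 bins. Its 3' bin (chr11:101450001-101500000) holds 11.2 kb of the gene beside Ifi35, Vat1, Rnd2 and Gm11625. Its inner bin (chr11:101500001-101550000) lies wholly within the gene and holds no other gene. Its 5' bin (chr11:101550001-101600000) holds only 1.96 kb of Brca1 beside Nbr1, Tmem106a and Gm11634. The inner bin has no gene of its own, so its value was solved from the Brca1 value and those of the other 2 bins. Brca2 spans chr5:150522297-150570147 on the plus strand. The 5' bin of Brca2 (chr5:150500001-150550000) holds 27.7 kb of it beside Zar1l and Gm5, and the 3' bin (chr5:150550001-150600000) holds 20.1 kb beside N4bp2l1, N4bp2l2, Gm23641 and Gm42529. Trp53 spans chr11:69580348-69591873 on the plus strand, and its 11.5 kb fill 23.1% of 1 bin (chr11:69550001-69600000) shared with Efnb3, Wrap53 and Atp1b2.

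The 250 bases before the start of 1 RefSeq transcript per gene are shown because they place the promoter among these bins, which decides whether a low bin includes it. They are RefSeq sequences of GRCm38.p6, written 5′ to 3′ on the strand of the gene, with the 20 bases next to the start in capitals.
Brca1: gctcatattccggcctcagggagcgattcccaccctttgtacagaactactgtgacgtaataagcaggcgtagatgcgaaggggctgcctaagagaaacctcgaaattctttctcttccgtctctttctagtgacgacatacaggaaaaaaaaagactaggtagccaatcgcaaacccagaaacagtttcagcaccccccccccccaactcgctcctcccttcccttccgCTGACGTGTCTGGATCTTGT
Brca2: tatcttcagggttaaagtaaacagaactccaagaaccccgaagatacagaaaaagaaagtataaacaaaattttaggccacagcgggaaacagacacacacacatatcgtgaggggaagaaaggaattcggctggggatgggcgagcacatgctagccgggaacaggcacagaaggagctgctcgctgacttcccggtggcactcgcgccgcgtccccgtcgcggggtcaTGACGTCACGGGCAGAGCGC
Trp53: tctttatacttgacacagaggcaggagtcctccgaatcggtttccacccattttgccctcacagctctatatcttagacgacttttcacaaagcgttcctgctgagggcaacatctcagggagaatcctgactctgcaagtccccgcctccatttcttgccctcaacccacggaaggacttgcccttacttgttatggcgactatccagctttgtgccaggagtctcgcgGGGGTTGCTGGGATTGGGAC
The Brca1 stretch (chr11:101551956-101552205, minus strand) lies in the 5' bin of that gene and reaches over the gap to Nbr1, which starts at base 101552107. It is outside the inner bin. The Brca2 stretch (chr5:150522371-150522620, plus strand) lies in the 5' bin of Brca2, and the Trp53 stretch (chr11:69580109-69580358, plus strand) lies in the Trp53 bin. The transcripts used for Brca2 and Trp53 start later than the gene spans given above, so the Brca2 stretch lies inside that span and the Trp53 stretch ends just inside it. The 3 stretches hold 12 CG dinucleotides for Brca1, 18 for Brca2 and 9 for Trp53.

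The inner bin of Brca1 was low in KB1P tumours and the bins on either side of it were not. In the 31 KB1P tumours its local deviation ran from -0.86 to -0.12 with a median of -0.33, and it was below 0 in all 31. The mean was -0.42 ± 0.21 (SD, n = 31), a ratio of 0.747 to the surroundings. In KB1(L1363P)P the lowest, median and highest deviations were -0.43, -0.25 and 0.11, with 22 of 24 tumours below 0 and a mean of -0.23 ± 0.12 (SD, n = 24). That mean is a ratio of 0.852. In KP the values ran from -0.29 to 0.05 with a median of -0.12 and a mean of -0.11 ± 0.09 (SD, n = 18), and 15 of 18 were below 0. In KB2P they ran from -0.67 to 0.26 with a median of -0.04 and a mean of -0.03 ± 0.16 (SD, n = 25). The spleen of genotype KB1P was at -0.17, that of KP at 0 and that of KB1(L1363P)P at 0.02. All 31 KB1P tumours lay under the KP median, and 17 of them under the lowest KP tumour. Between KB1P and KB1(L1363P)P the overlap was wider, and 15 KB1P tumours lay under the lowest KB1(L1363P)P tumour.

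**Figure D1:**
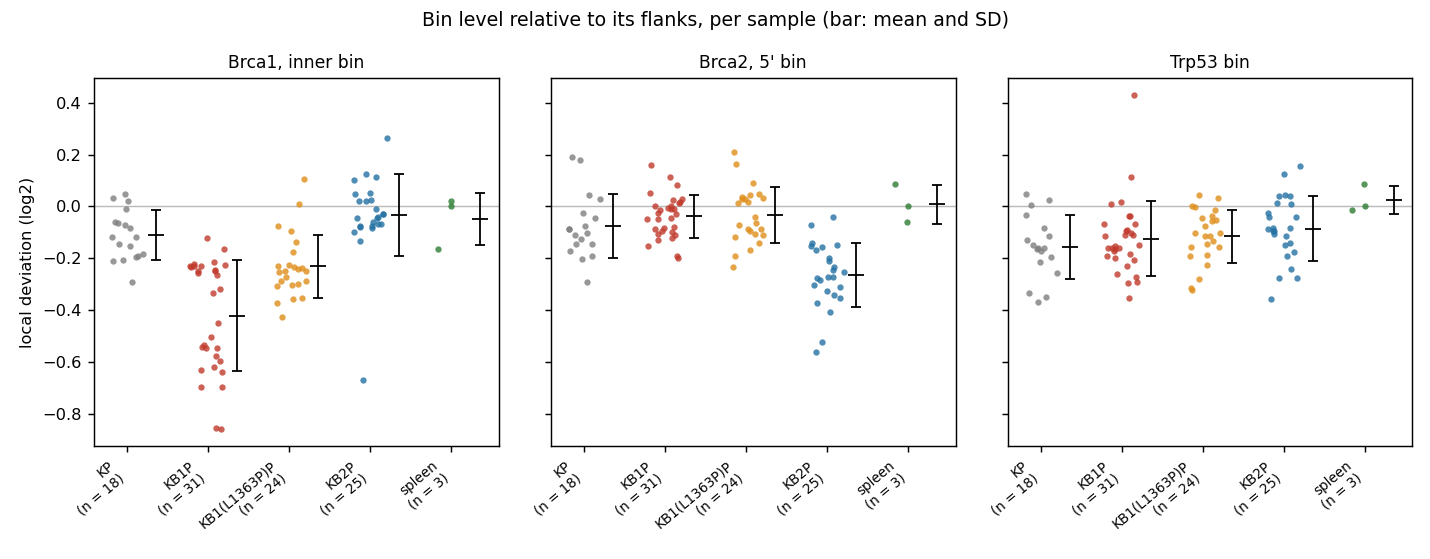
Local deviation (log2, vertical axis) of the Brca1 inner bin, the Brca2 5' bin and the Trp53 bin in each tumour and spleen, by group; points are samples and bars are the mean and SD. The Brca1 bin is lowest in KB1P (mean -0.42), the Brca2 bin in KB2P (mean -0.26), and the Trp53 bin is slightly below 0 in all 4 tumour groups (means -0.16 to -0.09).

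Against KP, the KB1P difference at the inner bin was -0.31 (SE 0.047, limma with Benjamini-Hochberg adjustment over 16290 bins, adjusted p = 1.02e-05). It was the bin with the second smallest p, and 3 bins were called in that comparison, 0.0184% of those tested. The other called bins were those of Clec4a2 (0.55, higher in KB1P) and Gm34829 (-0.15). With group labels shuffled over the samples, up to 29 bins were called between KB1P and KP, so adjusted p values of bins can be too small. Against KB2P the KB1P difference was -0.39 (SE 0.042, limma adjusted p = 2.11e-12), in a comparison that called 2.93% of bins. Against the spleens it was -0.37 (SE 0.095, unadjusted limma p = 1.60e-04, adjusted p = 0.868), the third smallest p of a comparison that called 0% of bins and had 424 at an unadjusted p under 0.05. In KB1P no tested bin had a lower mean than the inner bin of Brca1, which was 1 of 16290.

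KB1(L1363P)P stood between KB1P and KP at this bin, and neither step passed the test. The difference from KP was -0.12 (SE 0.049, unadjusted limma p = 0.0154, adjusted p = 1.00), where 0.00614% of bins were called. The difference from KB1P was 0.19 (SE 0.043, unadjusted p = 2.25e-05, limma adjusted p = 0.121), the second smallest p of a comparison with 0% of bins called and 1302 at an unadjusted p under 0.05. Without KB2P replicate 9, which lay at -0.67 and entered the common estimate of spread, the adjusted p of that difference was 0.0481. Against KB2P the KB1(L1363P)P bin was lower by -0.20 on the log2 scale (SE 0.045, limma adjusted p = 0.00218), in a comparison that called 2.75% of bins. Of all tested bins, 24 had a mean as low as this one in KB1(L1363P)P, 0.147% of them, against 1178 or 7.23% in KP. The order of the means was thus KB1P, KB1(L1363P)P, KP, spleen and KB2P, and neighbours in that order were not separated by the test. KP and KB2P differed by 0.08 (adjusted p = 0.430).

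Within KB1P the inner-bin deviations left a gap of 0.115 near their middle. Below it lay 15 tumours between -0.86 and -0.45 with a median of -0.60, and above it 16 tumours between -0.33 and -0.12 with a median of -0.23. The gap was seen in the values themselves and was not tested. Replicate 10 (-0.45, just below the gap) and replicate 31 (-0.86) had a copy-number step at Brca1, described below, that enlarged their deviations. Against the left side alone replicate 10 would lie less low, and its side of the gap depends on this choice. Values on both sides of the gap came from each series with over 1 KB1P tumour, 5 below and 5 above in series 5289, 5 and 6 in series D, and 5 and 3 in series 2766. The tumour titled KB1P 47 (replicate 8), whose description carries the name of the L1363P model, was at -0.50, below every KB1(L1363P)P tumour. The series means for KB1P were -0.39 in 5289, -0.42 in D and -0.50 in 2766. Histology moved with the genotype here too. Among adenocarcinomas alone the means were -0.44 in KB1P (n = 29), -0.28 in KB1(L1363P)P (n = 3), -0.06 in KP (n = 6) and -0.03 in KB2P (n = 25). The adenocarcinoma difference between KB1P and KP was -0.38 (limma adjusted p = 0.0292). Within series 5289, with all histology classes kept, the difference between KB1P and KP was -0.26 (n = 10 and 3, unadjusted limma p = 0.00401, adjusted p = 0.760).

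The bins that flank the inner bin were near their surroundings in every group. In the 3' bin of Brca1 the group means ran from -0.00 in KP to 0.03 in KB1(L1363P)P, with KB1P at 0.00. In the 5' bin of Brca1, which holds the promoter and the neighbour Nbr1, an autophagy receptor, they ran from 0.05 in KP to 0.10 in KB1P. None of the genotype contrasts was called at either of these bins. The low signal of KB1P tumours was therefore limited, among the bins over Brca1, to the 1 that holds neither the promoter nor the end of the gene.

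**Figure D2:**
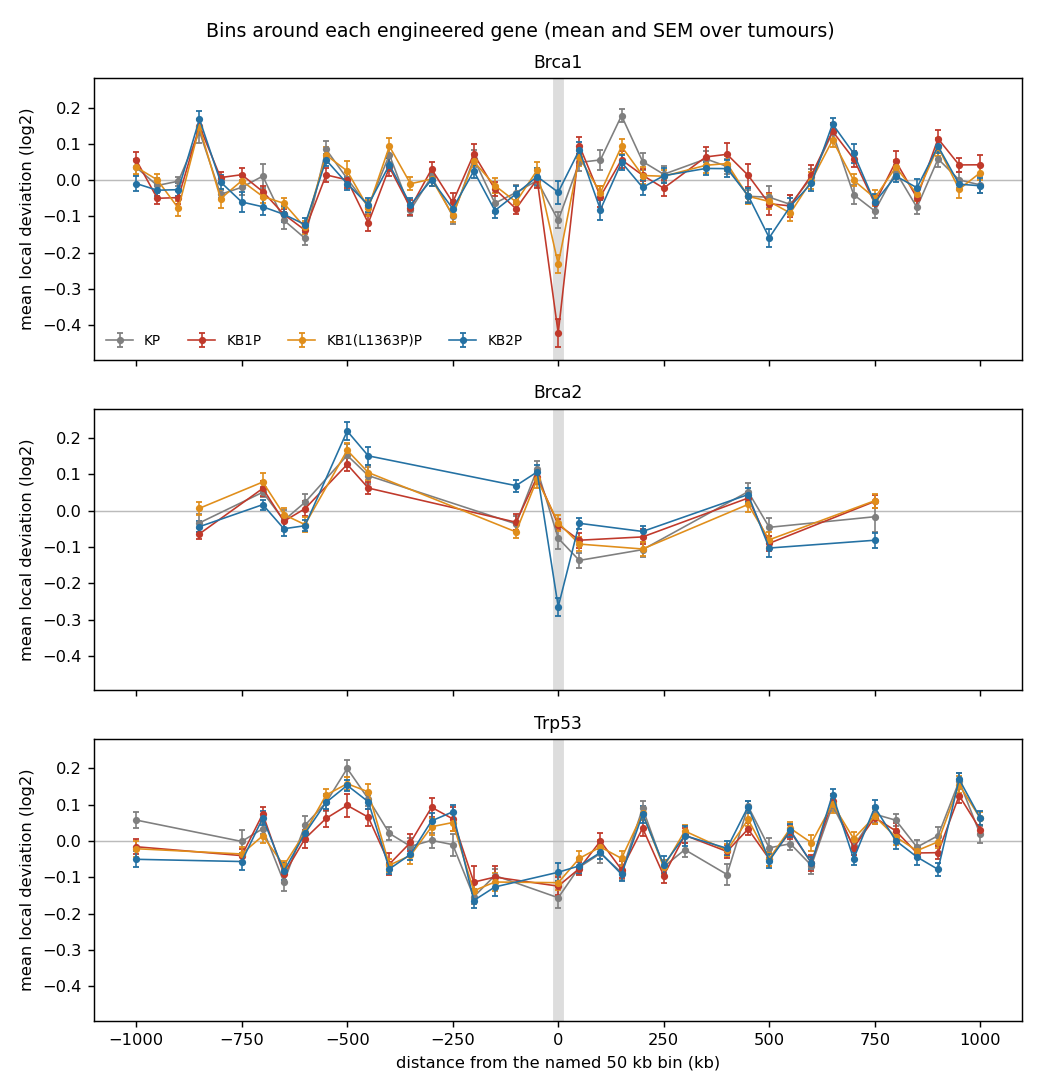
Mean local deviation (log2, vertical axis) with its SEM of the 50 kb bins within 1 Mb of the Brca1 inner bin, the Brca2 5' bin and the Trp53 bin (grey band), against distance in kb, for the 4 tumour genotypes. A dip of 1 bin stands out for KB1P at Brca1 (-0.42) and for KB2P at Brca2 (-0.26); at Trp53 the named bin (-0.16 to -0.09) is about as low as the bin 200 kb to its left (-0.16 to -0.11).

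Averaged over the whole gene, the Brca1 deviation was small because 2 of its 3 bins were not low. KB1P gene values ran from -0.29 to 0.05 with a median of -0.08 and were below 0 in 28 of 31 tumours. The KB1P mean was -0.09, against -0.04 in KB1(L1363P)P, -0.00 in KP and 0.03 in KB2P. The spleens were at -0.05 (KB1(L1363P)P), -0.06 (KB1P) and 0.05 (KP). At this level the difference of KB1P from KP was -0.09 (SE 0.024, limma adjusted p = 0.123), in a comparison that called 0.0433% of 32309 genes. With flanking genes at least 100 kb away in place of 40 kb it was -0.11 (adjusted p = 0.0485). KB1(L1363P)P differed from KP by -0.04 (adjusted p = 1.00, 0.0155% of genes called) and from KB1P by 0.05 (unadjusted p = 0.0192, limma adjusted p = 0.515, 0.0031% called). Against KB2P the gene was lower in KB1P by -0.12 (limma adjusted p = 4.01e-05, 3.22% called). The KB1(L1363P)P value was -0.07 relative to KB2P (adjusted p = 0.0994, 3.14% called), and without KB2P replicate 9 it was -0.08 (adjusted p = 0.0190).

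At Brca2 the 5' bin was low in KB2P tumours and in no other group to the same degree. In the 25 KB2P tumours its local deviation ran from -0.56 to -0.04 with a median of -0.27, and 25 of 25 were below 0. The mean was -0.26 ± 0.12 (SD, n = 25), a ratio of 0.832. The KP tumours ran from -0.29 to 0.19 with a median of -0.10 and a mean of -0.08 ± 0.12 (SD, n = 18). KB1P ran from -0.20 to 0.16 with a median of -0.03 and a mean of -0.04 (n = 31), and KB1(L1363P)P from -0.23 to 0.21 with a median of -0.05 and a mean of -0.03 (n = 24). The spleens were at -0.06 (KP), 0 (KB1(L1363P)P) and 0.09 (KB1P). The groups overlapped, with 18 of 25 KB2P tumours under the lowest KB1P tumour, 16 under the lowest KB1(L1363P)P tumour and 9 under the lowest KP tumour. Within KB2P the series means were -0.28 in 3196 (n = 20) and -0.22 in 3499 (n = 5), so both series lay on the same side of the other groups.

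The KB2P difference at this bin was -0.19 from KP (SE 0.034, limma adjusted p = 3.11e-05). That comparison called 3.7% of bins, and this bin was the 87th by p. KB1P was higher than KB2P by 0.23 (adjusted p = 2.22e-09) and KB1(L1363P)P by 0.23 (limma adjusted p = 9.80e-09). Against the spleens the KB2P difference was -0.27 (SE 0.067, limma adjusted p = 0.0301, 0.27% of bins called), and it was not called once any 1 spleen was left out (adjusted p = 0.101 to 0.694). The bins with the smallest p between KB2P and KP were far from Brca2, at 2900052N01Rik (1.08), Mrgprb13 (1.53) and Olfr898 (-0.68), and the part that library series plays in them was not tested. In KB2P, 49 bins had a mean as low as the Brca2 5' bin, 0.301% of all tested. The Brca2 bin was thus 1 of 602 bins called for this genotype, where the Brca1 bin was 1 of 3.

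The 3' bin of Brca2 was not low in KB2P. Its mean was -0.03 in KB2P, -0.08 in KB1P, -0.09 in KB1(L1363P)P and -0.14 in KP, and KB2P was higher than KP by 0.10 (SE 0.030, limma adjusted p = 0.0332). It was not called between KB2P and KB1P (-0.05 for KB1P minus KB2P, adjusted p = 0.459), KB1(L1363P)P (-0.06, adjusted p = 0.335) or the spleens (-0.07 for KB2P, limma adjusted p = 1.00). Averaging both bins left the Brca2 gene value at -0.14 in KB2P, with 25 of 25 tumours below 0, and at -0.10 in KP, -0.07 in KB1(L1363P)P and -0.06 in KB1P. The spleens were at 0 (KB1(L1363P)P), 0.02 (KP) and 0.04 (KB1P). For the gene, KB2P minus KP was -0.04 (SE 0.021, limma adjusted p = 0.299, 4.12% of genes called). KB1P minus KB2P was 0.08 (limma adjusted p = 0.00322), and KB1(L1363P)P minus KB2P was 0.07 (limma adjusted p = 0.0138). Against the spleens KB2P was at -0.16 (adjusted p = 0.0460, 0.331% called). Zar1l, an oocyte gene that ends just before Brca2 and lies in the 5' bin, was at -0.26 in KB2P, and N4bp2l1 behind the gene was at -0.02. The deposited values cannot separate Brca2 from Zar1l within the bin.

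At Trp53, which all 4 models delete, the bin was somewhat low in every tumour group and no genotype differed from another. In KP tumours the mean deviation was -0.16 ± 0.12 (SD, n = 18). In KB1P it was -0.12 ± 0.14 (SD, n = 31), while KB1(L1363P)P tumours averaged -0.11 ± 0.10 (SD, n = 24) and KB2P tumours -0.09 ± 0.12 (SD, n = 25). The tumours below 0 numbered 15 of 18, 27 of 31, 21 of 24 and 18 of 25 in that order. Of all tested bins, 12.1%, 5.63%, 6.7% and 24.3% had as many tumours below 0 in the same groups. By mean deviation, 2.22%, 4.44%, 5.52% and 13.4% of bins were as low. The spleens were at -0.01 (KB1P), 0 (KB1(L1363P)P) and 0.09 (KP). KP values ran from -0.37 to 0.05, KB1P from -0.35 to 0.43, KB1(L1363P)P from -0.32 to 0.04 and KB2P from -0.35 to 0.15, so the groups overlapped over most of their range.

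As a gene, Trp53 was at -0.18 in KP relative to the spleens (SE 0.078, unadjusted limma p = 0.0247), at -0.15 in KB1P (p = 0.0555 in limma, unadjusted), at -0.14 in KB1(L1363P)P (p = 0.0701 in limma, unadjusted) and at -0.12 in KB2P (p = 0.117 in limma, unadjusted). None of these passed adjustment (adjusted p = 1.00 in each). The comparisons share the same 3 spleens, to which the ratios are relative, so they are not independent of each other. The first 3 of these comparisons called 0% of genes, with 984, 903 and 758 genes at an unadjusted p under 0.05. The same comparisons on bins called 0%, with 464, 424 and 368 bins at an unadjusted p under 0.05. Among KP tumours 1.65% of genes had a mean deviation as low as Trp53, against 3.4% in KB1P, 3.94% in KB1(L1363P)P and 8.79% in KB2P. Efnb3, a membrane ligand of Eph receptors, and Wrap53, which is needed for telomerase assembly, had the values of Trp53 because they lie in the same bin. The bin 200 kb to the left was about as low, at -0.15 in KP, -0.11 in KB1P, -0.14 in KB1(L1363P)P and -0.16 in KB2P. A dip of the Trp53 bin itself was thus not resolved from its surroundings at this bin size.

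In 2 KB1P tumours the copy number of chromosome 11 changed at both of its engineered genes. In these, replicates 10 and 31, the segment value stepped by at least 0.2 across Trp53 and across Brca1, which lie 31.9 Mb apart with 388 recovered bins between them. Both were adenocarcinomas, from series 5289 (titled KB1P 5) and 2766 (titled KB1PM 9). In replicate 10 the step was -0.46 at Trp53 and 0.46 at Brca1, going along the chromosome. In replicate 31 it was -0.91 at Trp53 and 0.70 at Brca1. The stretch between the genes lay below both of its sides in each tumour.

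In replicate 10 the median log2 ratio was 0.47 in the 1 Mb left of Trp53, -0.03 between the genes and 0.40 in the 1 Mb right of Brca1. In replicate 31 it was 0.35 on the left, -0.50 between and 0.63 on the right. The value of replicate 31 is a median over the whole stretch, which held a further change: the segment value went from -0.54 at Gm11531 through -0.28 at Gm11529 to -0.02 at Skap1, near base 96464570. The 1 Mb of the stretch next to Brca1 was therefore at -0.03 in that tumour. In replicate 10 the stretch had 1 segment value, -0.04. Relative to the mean of the sides, the stretch was at -0.47 in replicate 10 and at -0.99 in replicate 31. The next lowest tumour by this measure, KB1P replicate 4, was at -0.28 and had no step at either gene. The 2 tumours were chosen by their steps, and no test was made of this difference.

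The ends of the stretch could be placed within 1 or 2 bins. In replicate 10 the segment value changed between Dnah2 (0.43) and Efnb3 (-0.04), so Trp53 was on the low side by segment value. In replicate 31 it changed from 0.37 at Trp53 through -0.08 at Atp1b2 to -0.54 at Shbg, so Trp53 was on the high side by segment value, and the local deviation of its bin, 0.43, was the highest of all KB1P tumours. The log2 ratio of the Trp53 bin itself lay between its sides in both. It was 0.16 in replicate 10, where the 6 bins to the left averaged 0.39 and the 6 to the right -0.23, and -0.02 in replicate 31, between 0.33 and -0.54. At the other end the change fell within Brca1 in both. The segment values of Gm11625, Brca1 and Nbr1 were -0.04, 0.12 and 0.42 in replicate 10, and -0.02, 0.22 and 0.69 in replicate 31. As Brca1 averages 3 bins, these values place the change between the inner bin and the 5' bin. Replicate 31 had the lowest inner-bin deviation of all tumours (-0.86) and replicate 10 was at -0.45, but the flanks of both span the step. By log2 ratio the inner bin of replicate 31 was at -0.57. The 6 bins to its left averaged -0.01 and the 6 to its right 0.66. In replicate 10 the inner bin was at -0.34, against -0.12 on the left and 0.46 on the right. Against the left side alone, both dips were smaller than these deviations.

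**Figure D3:**
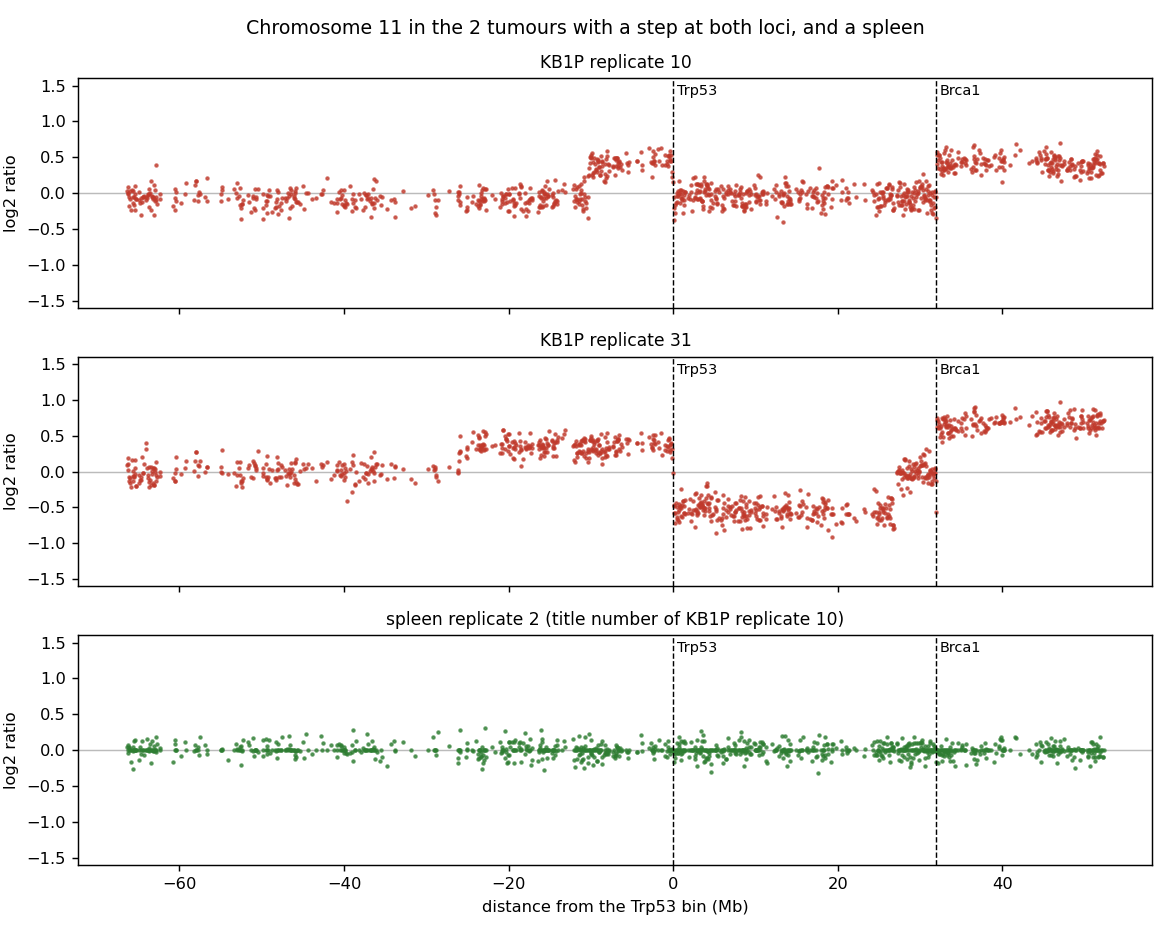
Log2 ratio (vertical axis) of the recovered bins of chromosome 11 against distance from the Trp53 bin in Mb, for KB1P replicates 10 and 31 and for spleen replicate 2, with dashed lines at Trp53 and Brca1. In both tumours the stretch between the lines lies below its sides (-0.03 and -0.50 against 0.35 to 0.63), and the spleen is flat.

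No KP, KB1(L1363P)P or KB2P tumour had a step of at least 0.2 at Brca1 or Trp53. With a threshold of 0.1, 1 KB1(L1363P)P tumour had a step at Brca1. Of 30992 genes, 4.83% had a step in at least 2 KB1P tumours. This share takes each gene alone, and how often 2 genes step in the same tumours was not tested. Brca2 had a step of 0.40 in 1 KB1P tumour, replicate 28. Spleen replicate 2, whose title gives the same model and number as KB1P replicate 10, had a segment value of 0.00 at all 3 genes and no step. Without these 2 tumours the KB1P difference from KP at the Brca1 inner bin was -0.29 (limma adjusted p = 3.27e-05).

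The segment value gives the copy number of the larger stretch that a gene lies on, and here Brca2 differed between genotypes. At Brca2 the lowest, median and highest segment values were -0.08, 0.44 and 0.82 in KB2P, -0.44, 0.32 and 0.82 in KB1P, -0.08, 0.03 and 0.63 in KB1(L1363P)P, and -0.24, 0.03 and 0.44 in KP. The means were 0.40, 0.29, 0.11 and 0.04. The spleens were at 0.00 each. Many KB2P and KB1P tumours were thus high, while most KP and KB1(L1363P)P tumours were near 0 and all groups overlapped. The stretch that holds Brca2 was thus often high in the model that deletes part of Brca2.

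Against KP the Brca2 segment value was higher in KB2P by 0.36 (SE 0.075, limma adjusted p = 0.00109), in a comparison that called 12% of 43513 genes, and in KB1P by 0.26 (SE 0.072, limma adjusted p = 0.0110, 13.5% called). KB1(L1363P)P was lower than KB2P by -0.28 (limma adjusted p = 0.00650, 12.8% called), and its difference from KB1P was -0.18 (SE 0.066, adjusted p = 0.0506, 13.5% called). With 1 tumour kept per shared title number the last difference was -0.19 (limma adjusted p = 0.0441). Among adenocarcinomas alone (29 KB1P, 25 KB2P, 6 KP and 3 KB1(L1363P)P tumours) none of these was called, with differences of 0.40 (adjusted p = 0.384), 0.30 (adjusted p = 0.429) and -0.14 (adjusted p = 0.894) in the order of the first 3. The KB1P and KB2P values differed by -0.10 (adjusted p = 0.452). Genes so called are counted along shared segments and are not independent.

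For Brca1 and Trp53 no contrast of mean segment values between genotypes was called by limma. At Brca1 the range was -0.49 to 0.68 in KB1P with a mean of 0.14, -0.12 to 0.32 in KB1(L1363P)P with 0.03, -0.85 to 0.27 in KP with -0.03, and -0.78 to 0.35 in KB2P with -0.07. The contrast of KB1P with KB2P was 0.21 (SE 0.070, limma adjusted p = 0.106). At Trp53 the means were 0.09 in KB1P, 0.05 in KP, 0.01 in KB1(L1363P)P and -0.05 in KB2P. The 24 KB1(L1363P)P tumours kept closest to 0 at both genes.

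**Figure D4:**
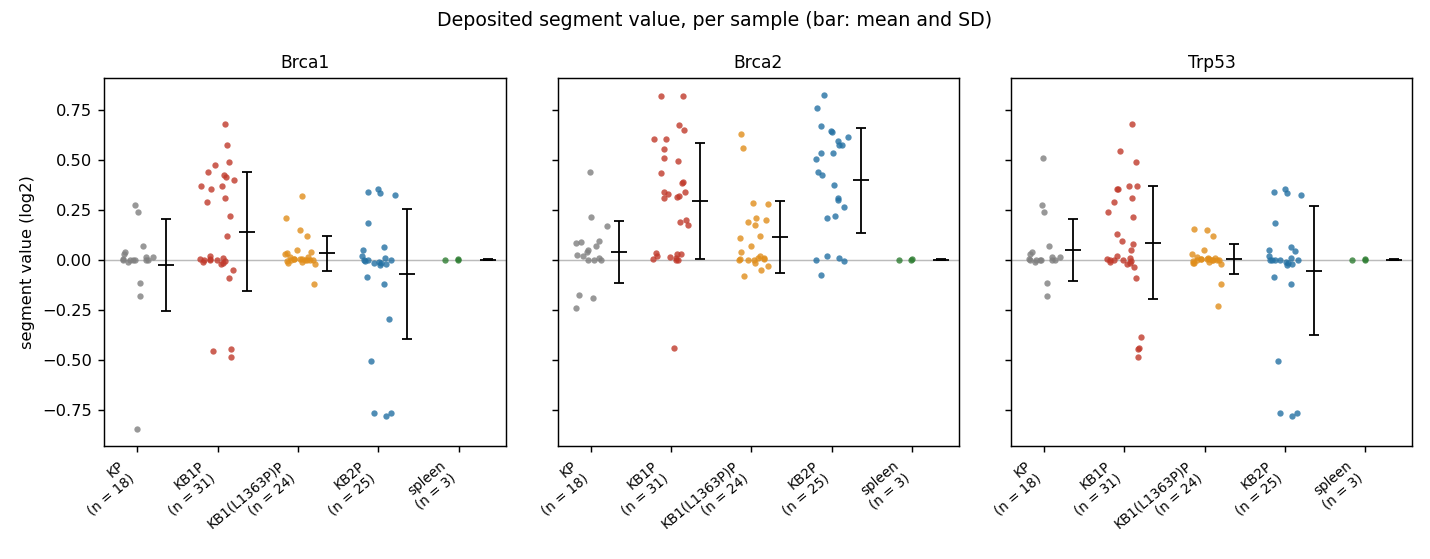
Deposited segment value (log2, vertical axis) at Brca1, Brca2 and Trp53 in each tumour and spleen, by group; points are samples and bars are the mean and SD. At Brca2 the KB2P (mean 0.40) and KB1P (mean 0.29) tumours lie higher than KP (mean 0.04), while at Brca1 and Trp53 the group means lie between -0.07 and 0.14.

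The whole-number copy score showed the same contrast as counts of tumours. Brca2 was gained in 15 of 25 KB2P tumours, 15 of 31 KB1P tumours, 2 of 24 KB1(L1363P)P tumours and 1 of 18 KP tumours, and lost in 1 KB1P tumour. Brca1 was gained in 11 and lost in 3 of 31 KB1P tumours, gained in 4 and lost in 4 of 25 KB2P tumours, lost in 1 KP tumour, and neutral in all 24 KB1(L1363P)P tumours. Trp53 was gained in 7 and lost in 3 KB1P tumours, gained in 4 and lost in 4 KB2P tumours, gained in 1 KP tumour, and neutral in all KB1(L1363P)P tumours. So the gene that defines a model was seldom scored as lost in it, and its low bin did not show in the segment.

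By Fisher's exact test with adjustment over all genes, Brca2 gains were more frequent in KB2P (adjusted p = 0.0154, 7.62% of genes called) and in KB1P (adjusted p = 0.0343, 12.4% called) than in KP. They were less frequent in KB1(L1363P)P than in KB2P (exact test, adjusted p = 0.00595, 11.4% called) and than in KB1P (exact test, adjusted p = 0.0202, 21.2% called). Brca1 gains were more frequent in KB1P than in KP (exact test, adjusted p = 0.0343) and than in KB1(L1363P)P (exact test, adjusted p = 0.0125). The Trp53 gains of KB1P against KB1(L1363P)P had an adjusted p of 0.0518 in the exact test. With gains taken as segment values above 0.2, Brca1 was gained in 14 of 31 KB1P and 2 of 18 KP tumours, which did not pass (exact test, adjusted p = 0.127, 9.93% of genes called). By that rule Trp53 was gained in 11 KB1P tumours and 0 of 24 KB1(L1363P)P tumours, which did (exact test, adjusted p = 0.00988, 31.8% called), and Brca1 in 14 against 2 (exact test, adjusted p = 0.0185).

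Among adenocarcinomas alone none of these gain differences passed (adjusted p = 1.00 in each), which with 6 KP and 3 KB1(L1363P)P tumours says little about stability. For Brca1 gains, KB1P exceeded KP by 37.9 percentage points in adenocarcinomas and by 35.5 in all tumours. For Brca2 gains the excess over KP was 31.6 points in KB1P (42.8 in all tumours) and 43.3 in KB2P (54.4 in all). KB1(L1363P)P minus KB1P was -14.9 points for Brca2 gains (-40.1 in all tumours), and KB1(L1363P)P minus KB2P was -26.7 (-51.7 in all).

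Brca1 and Trp53 share chromosome 11, and in 75 of 98 tumours both had the same segment value. This held for 17 of 18 KP tumours, 21 of 25 KB2P tumours, 19 of 24 KB1(L1363P)P tumours and 18 of 31 KB1P tumours. The genes were further apart than 0.2 in 9 KB1P tumours, 7 of them with Brca1 higher, and in 3 KB1(L1363P)P tumours, all with Brca1 higher. In KB2P and KP 1 tumour each passed that mark, both with Trp53 higher. The KP tumour, replicate 7, was at -0.85 for Brca1 and 0.51 for Trp53. The mean of Brca1 minus Trp53 was 0.06 in KB1P, 0.03 in KB1(L1363P)P, -0.01 in KB2P and -0.08 in KP, and no pair of genotypes differed in 6 permutation tests (adjusted p = 0.334 to 0.839).

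**Figure D5:**
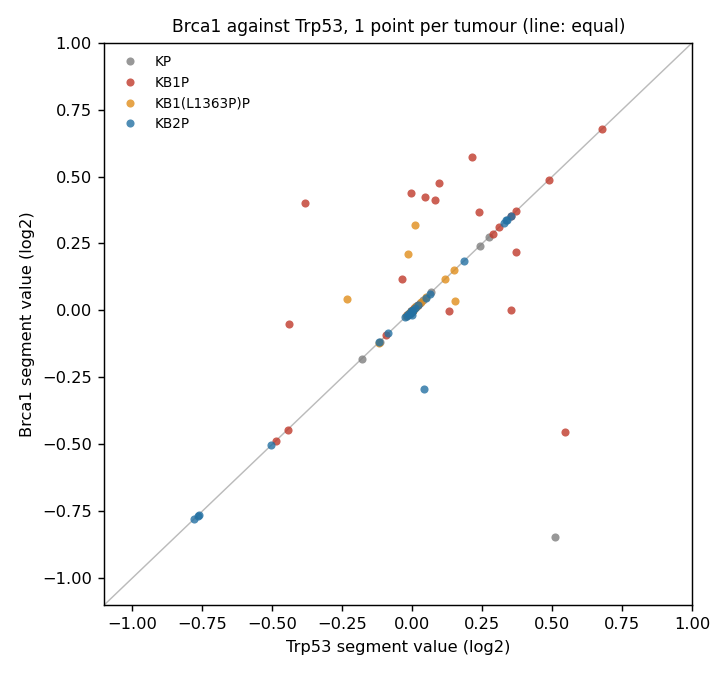
Segment value of Brca1 (log2, vertical axis) against that of Trp53 (log2, horizontal axis), 1 point per tumour, coloured by genotype, with the line of equal values. Most points lie on the line (75 of 98 tumours). Of the 14 tumours in which the genes are further apart than 0.2, 7 are KB1P tumours with Brca1 higher. The lowest point is KP replicate 7 (Brca1 -0.85, Trp53 0.51).

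Histology classes within a genotype were not separated at any of the 3 genes. For KB1(L1363P)P, sarcomatoid tumours minus carcinosarcomas gave 0.04 at the Brca1 inner bin (-0.21 against -0.25, SE 0.069, limma p = 0.527, adjusted p = 0.994) and 0.03 at the Trp53 bin (limma p = 0.601). For KP, sarcomatoid tumours minus adenocarcinomas gave -0.09 at the Brca1 inner bin (-0.15 against -0.06, SE 0.081, limma p = 0.286) and -0.06 at the Trp53 bin (limma p = 0.349). All 10 KP sarcomatoid tumours were in series 5750 and no other tumour was, so class and series cannot be told apart in KP. The intervals around these differences are wide against the deviations themselves.

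Each spleen was paired with the tumour of its own series, 5289, whose title gives the same model and number. KB1P replicate 18, of series D, also bears the number of the KB1P spleen and was not paired. The direction varied between pairs except at the Brca1 inner bin. There all 3 tumours were lower, at -0.45 against -0.17 in the KB1P spleen, -0.19 against 0 in KP and -0.25 against 0.02 in KB1(L1363P)P. The KB1P value is that of replicate 10, whose flanks span the step at Brca1, so its size depends on the side taken as reference. At the Trp53 bin the KP and KB1(L1363P)P tumours were lower (-0.19 against 0.09 and -0.32 against 0) and the KB1P tumour, replicate 10, was higher (0.12 against -0.01). At the Brca2 5' bin the KB1P tumour was lower (-0.11 against 0.09), and the KP (-0.05 against -0.06) and KB1(L1363P)P tumours (0.16 against 0) were not. The 3 tumours averaged -0.30 at the Brca1 inner bin against -0.05 in their spleens, a difference of -0.25 (SE 0.085, unadjusted limma p = 0.00862, adjusted p = 0.945). For the gene values the differences were -0.02 at Brca1, -0.11 at Brca2 and -0.14 at Trp53 (limma adjusted p = 0.984, 0.904 and 0.909), none of which was called. Of all genes 0 were called by limma in these pairs and 1690 had an unadjusted p under 0.05. As the ratios are relative to the middle spleen, the spleen values are not an independent background here either.

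Across tumours of a genotype, a lower Brca1 or Brca2 deviation was not shown to go with a lower Trp53 deviation. All 4 correlations were above 0 and none passed the test, which with 18 to 31 tumours each cannot exclude a weak relation. Pearson's r was 0.40 in KP (n = 18, permutation p = 0.104, Spearman's rho 0.29 with permutation p = 0.247), 0.09 in KB1P (n = 31, permutation p = 0.610, rho 0.03 with p = 0.878) and 0.18 in KB1(L1363P)P (n = 24, permutation p = 0.395, rho 0.07 with p = 0.728). For Brca2 with Trp53 in KB2P it was 0.22 (n = 25, permutation p = 0.282, rho 0.22 with p = 0.294). Adjusted over these 4 relations the permutation p values of r were 0.416 to 0.610. Without the 2 farthest tumours r was 0.22, 0.23, -0.11 and 0.09 in that order. Within series the sign was not stable: r was 0.68 in KP of series 5750 (n = 10, permutation p = 0.0292), 0.59 in KB1P of series 5289 (n = 10, permutation p = 0.0727), 0.48 in KB1P of series 2766 (n = 8, exact permutation p = 0.210) and -0.64 in KB1P of series D (n = 11, permutation p = 0.0340). In KB1(L1363P)P of series 5289 r was 0.18 (n = 20, permutation p = 0.454) and in KB2P of series 3196 it was 0.26 (n = 20, permutation p = 0.279).

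Outside 1 Mb, no gene followed a member closely over the 98 tumours. For Brca1 the genes with the highest Pearson r of local deviation were Gm36635 and Bag5 (0.45 each, in 1 shared bin of chromosome 12), then Psmb4, a proteasome subunit (0.44). For Brca2 they were Gm33263 (0.44), Rhobtb1 (0.43) and Gm7367 (0.42), and for Trp53 Gm9508 (0.46) and Gm19402 (0.46). Within 1 Mb, Zar1l reached 0.71 with Brca2 and Wrap53 1.00 with Trp53, both through shared bins, while Vat1 and Nbr1 reached 0.39 with Brca1. These values describe the tables; the tumours share libraries, bins and base composition.

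Genes of the same pathways showed few local changes. Of 19 genes listed as partners of Brca1 and Brca2 and of 19 listed as regulators, relatives and targets of p53, all 38 were tested. Bach1 was higher in KB1(L1363P)P than in KB2P by 0.09 (limma adjusted p = 0.0379). In mouse this symbol names a transcription factor and not the Brca1 partner Brip1, which once bore the same name and is listed separately. Zmat3 was lower in KB1P than in KB2P by -0.08 (limma adjusted p = 0.0344). These were the 2 local deviations called among the listed genes over the 10 contrasts, 1 of 38 in each comparison, where 3.14% and 3.22% of all genes were called. In the comparison of KB1P with KP, 0 of 38 were called (0.0433% of all genes), with list medians of -0.01 and -0.01 against -0.00 over all genes. The genes that led that comparison were Lrrc37a (0.39), Gm884 (0.28) and Clec4a2 (0.55), higher in KB1P, and the same 3 led KB1(L1363P)P against KP with 0.24, 0.19 and 0.38. Both comparisons share the KP tumours. Lrrc37a was the 1 gene called between KB1(L1363P)P and KB1P (-0.15, limma adjusted p = 0.0317). In the comparisons with KB2P, 2900052N01Rik, Mrgprb13 and Gm4791 led, and all 3 were higher in KB2P than in KP.

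By segment value, listed genes on stretches of differing copy number were called. Against KP, KB1P was higher at Rad52, which anneals single strands during repair, by 0.38 (limma adjusted p = 0.00285), at Bard1, the binding partner of Brca1, by 0.36 (limma adjusted p = 0.0268), and at Gadd45a, a p53 target, by 0.29 (limma adjusted p = 0.00514). It was lower at Mdm2, the ubiquitin ligase that degrades p53, by -0.37 (limma adjusted p = 0.0161). KB2P was higher than KP at Xrcc3, which also acts in homologous recombination, by 0.45 (limma adjusted p = 0.0129) and at Rad52 by 0.28 (limma adjusted p = 0.0406). KB1(L1363P)P was lower than KB1P at Gadd45a by -0.44 (limma adjusted p = 8.61e-07), at Rad52 by -0.33 (limma adjusted p = 0.00493), at Bard1 by -0.33 (limma adjusted p = 0.0237), and at Mdm4 and Btg2, which share a segment, by -0.20 (limma adjusted p = 0.0435 for each). It was lower than KB2P at Xrcc3 by -0.49 (limma adjusted p = 0.00587) and at Gadd45a by -0.28 (limma adjusted p = 0.00885). In numbers, 3 of the 38 listed genes were called higher and 1 lower in KB1P against KP, and 2 were called higher and 0 lower in KB2P against KP. These shares were not above the 13.5% and 12% of all genes called in the same comparisons.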

How the data were processed

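Genomic DNA of 98 mammary tumours and 3 spleens was sequenced. Reads were trimmed and aligned by the authors; build mm10, SAMtools 1.10, Picard, BWA 0.7.17 and cutadapt 2.5 are named per the submitters' processing notes. The labels' protocol names 20 kb bins corrected for GC content and mappability, and build hg19. Gene positions came from RefSeq on GRCm38.p6, and on them the deposited values changed in 50 kb steps. The authors deposited log2 ratios per gene, with no statement of what the ratio is relative to, and segmented log2 values. The deposited copy score per gene is a whole number, with 2 as neutral, per the values in the file. Read depth is not given, so no counting interval could be set. The spread between bins stands in for it.

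The 3 genes, the windows and the lists were chosen with earlier results of these data known. Of 43513 genes, 32661 could be placed by RefSeq symbol and 32309 had at least 5 flanking genes and were tested. The local deviation of a gene is its log2 ratio minus the median of genes within 1 Mb and at least 40 kb away. That of a bin is its log2 ratio minus the median of recovered bins within 1 Mb, without the bins next to it. The Brca1 inner bin had 37 such flanking bins and the Trp53 bin 32. The Brca2 5' bin had only 11 and the Brca2 3' bin 13. Of 17065 bins, 13680 came from genes lying in 1 bin and 3385, among them the Brca1 inner bin, were solved from genes over several bins. Of these 16290 were tested. Gene values were the planned test. Bins, the 100 kb gap, steps and left-out tumours were added after the data had been seen.

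Group differences were tested in R 4.3.3 with the limma package, version 3.58.1 (lmFit and eBayes over all groups, Benjamini-Hochberg adjustment over all features, threshold 0.05), gains and losses with Fisher's exact test, and single values with two-sided permutation tests in SciPy 1.17.1. Genotypes, each with the spleens, share 1 estimate of spread, and contrasts with a common group share its samples. Named features are the 3 genes, their neighbours, the 3 other features of smallest p in each contrast with calls, the 3 genes outside 1 Mb most alike over 98 tumours (1 is not reported here), and called listed genes, at most 4 per contrast by size with a tie kept. The code was tested on simulated data. With labels shuffled, no genes but up to 29 of 16290 bins were called for KB1P minus KP. With the true labels 3 bins were called there. Python 3.11.15, NumPy 2.4.6, pandas 2.3.3 and matplotlib 3.10.9 did the rest. The matched tumours and spleens were paired by the model and number in their titles, within the same library series. Alternatives were other windows and gaps, the mean of flanks, the segment value as reference, trend and robust fits, library series as a random block or alone, adenocarcinomas alone, gains taken from the segment value, tumours of uncertain label left out (those titled KB1PM and the tumour titled KB1P 47), 1 tumour per shared title number (added later), and single samples left out.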

Additional observations from a re-analysis of the deposited data

Results flagged for a closer look

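Within groups of 4 to 10 samples, 72 sets of values were tested with Dixon's criterion, and 13 had a sample far from the others. Chance marks about 1 in 20 such sets. The highest or lowest values were as follows. For the Brca1 segment value, KB1(L1363P)P replicate 22 was the highest both among carcinosarcomas and in series 5490 (0.319 in each), and KB1P replicate 7 was the lowest in series 5289 (-0.445). KP replicate 7 was the lowest adenocarcinoma for Brca1 (-0.847) and the highest for Trp53 (0.51). KP replicate 12 was the highest of series 5750 for both genes (0.242 in each). For the Trp53 segment value KB1(L1363P)P replicate 11 was the highest carcinosarcoma (0.153).

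For the local deviation of Trp53, KB1P replicate 31 was the highest of series 2766, at 0.453 for the gene and 0.429 for the bin. It is 1 of the 2 tumours in which the segment value stepped at Trp53 and Brca1, and Trp53 lay on the high side of the step by segment value. For Brca2 the highest were KB1P replicate 30 in series 2766 (0.076), KB1(L1363P)P replicate 21 in series 5490 (-0.00491) and, in the 5' bin of Brca2, KP replicate 8 among adenocarcinomas (0.19).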

How the results depend on the processing

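Of 449 recomputed values of 58 results, 203 planned and 202 added ones kept direction and side of the threshold, 23 planned and 8 added lost the threshold, 3 and 4 gained it, and 5 and 1 turned sign. The kept ones include settings that left out only samples of another group, where the difference could not change. Without a KB2P replicate, for example, KB1P minus KP at the Brca1 inner bin stayed at -0.31 and only the shared spread could differ. The counts are thus no measure of stability. Unless said otherwise the cause was not tested. Among gene deviations, Brca1 in KB1P minus KP was -0.11 (adjusted p = 0.0485) with a 100 kb gap, and Brca2 in KB2P minus KP was -0.085 with a 0.5 Mb window, both past the threshold. Brca2 in KB2P minus spleen was no longer called with 0.5 Mb (-0.17), 2 Mb (-0.17), the 100 kb gap (-0.16), the trend and robust fit (-0.16), adenocarcinomas alone (-0.16) and series as a random block (-0.15). With a sample left out it ran from -0.17 to -0.15, without KB2P replicate 12 and without each spleen not called (adjusted p = 0.0540 to 0.467). The Brca2 5' bin in KB2P minus spleen was -0.27 with the random block (adjusted p = 0.0922) and -0.31 to -0.23 with a sample left out.

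The Brca1 inner bin in KB1P minus KP was -0.26 in series 5289 alone (adjusted p = 0.760), which has fewer samples, and KB1(L1363P)P minus KB1P was 0.19 without KB2P replicate 9 (adjusted p = 0.0481). The Brca2 segment difference was 0.30 in adenocarcinomas and 0.18 in series 5289 for KB1P minus KP, 0.40 in adenocarcinomas for KB2P minus KP, and -0.19 from log2 ratios and -0.14 in adenocarcinomas for KB1(L1363P)P minus KB2P, none called. Without tumours of uncertain label KB1(L1363P)P minus KB1P was -0.20 (adjusted p = 0.0415), and with 1 tumour per title number -0.19 (adjusted p = 0.0441).

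Differences that turned sign were all uncalled. The Brca1 gene in KB1(L1363P)P minus spleen was -0.044 to 0.011 with a spleen left out (above 0 without spleen replicate 3), and in sarcomatoid tumours minus carcinosarcomas -0.0017 with 0.5 Mb. Brca1 minus Trp53 in KB1(L1363P)P minus KB1P was 0.017 in adenocarcinomas. The correlations became -0.26 in KB1P with bins, -0.11 in KB1(L1363P)P without the 2 farthest tumours and -0.041 in KB2P with 0.5 Mb.

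With the pair as a replicate block, the matched tumours and spleens differed by -0.02 at Brca1, -0.11 at Brca2 and -0.14 at Trp53. As every pair is complete, the block cannot change these differences, only their errors. In either fit 0 genes were called by limma (1647 with the block and 1690 without at an unadjusted p under 0.05). Bins of 50 kb limit every gene here, as Trp53 fills 23.1% of its bin.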
